A study of Mus musculus with 2 samples.

Results

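Imprinted genes are transcribed mainly from the copy inherited from 1 parent, and many of them raise or restrain growth before birth. The 10 described here are Igf2, H19, Dlk1, Meg3, Cdkn1c, Peg3, Mest, Grb10, Plagl1 and Igf2r. They were chosen by symbol from the 31053 genes listed for the control library, and all 10 were found. They were followed through single cells of the lung epithelium of mouse embryos at embryonic day 15, in the airway, the distal tips and the cells that lean towards the alveolar fate.

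The study made 1 library from sorted lung epithelial cells of control embryos, 3568 cell barcodes, and 1 from LEF/TCF knockout cells, 5342 barcodes. All levels below are those of the control library, whose genotype is labelled only as control. Expression in the knockout library was not analysed here. The 2 barcode lists shared 29 barcodes, 0.813% of the control barcodes. RNA was read from its 3′ end and molecules were counted by unique molecular identifiers (UMIs). Barcodes were kept where they held 1000 genes or more and no more than 10% mitochondrial UMIs, which left 3457 cells with 53639813 UMIs and a median of 12826 UMIs per cell. With 1 library there is no replicate spread. Every interval below is a 95% interval for counting error only, and no difference was tested between samples.

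Parental imprints are set in the germ line as DNA methylation at control regions and kept through development. In the Igf2-H19 domain, the paternal copy gives Igf2, a secreted growth factor, and the maternal copy gives H19, a long noncoding RNA. In the Dlk1-Meg3 domain, the paternal copy gives Dlk1, a membrane protein with repeats like those of Notch ligands, and the maternal copy gives the noncoding RNA Meg3. Paternally expressed genes of the set tend to favour growth, and maternally expressed ones such as Cdkn1c, Grb10 and Igf2r tend to restrain it. UMIs do not tell the parental copies apart, so the parent of origin is background here and was not measured.

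Cells were clustered without the 10 genes, the other imprinted genes and the genes of the IGF pathway, and clusters were named from marker genes. Airway-like cells numbered 734 and had 145 CPM (UMIs per 1000000 UMIs of the class) of Sox2 and 371 CPM of Scgb3a2, against 5.06 and 5.63 CPM in the distal cells. Distal progenitor-like cells numbered 1295 in 3 clusters, with 171 CPM of Sox9 and 1461 CPM of Sftpc, against 38.8 and 119 CPM in the airway-like cells. Xist led 1 of the 3 clusters, of 250 cells. Alveolar type 2-like cells numbered 688 and had 66.7 CPM of Sftpb and 71.3 CPM of Sftpa1, against 35.3 and 36.5 CPM in the distal cells, with Sox9 at 167 CPM. Lamp3 and Napsa were also higher there (6.07 and 2.18 against 4.93 and 1.45 CPM), while Abca3 was lower (7.23 against 9.54 CPM). Sftpd, Slc34a2 and Lyz2 were at 0.0778, 0.311 and 0 CPM, against 0.126, 0.190 and 0.506 CPM. Of the distal markers, Id2, Etv4, Sftpc, Mia, Bmp4 and Mycn were higher than in the distal cells, and Sox9 and Etv5 lower. Most distal markers were thus as high in this class as in the distal one. A cluster of 670 cells led by Smoc2, with Ager at 88.3 CPM, was given no class name and is called the Smoc2-Ager cluster. It was above the airway-like cells in distal markers, with Sox9 at 122 CPM and Sftpc at 1397 CPM. Its Bmp4 was at 24.4 CPM, against 74.6 CPM in distal and 4.66 CPM in airway-like cells. Ager, a marker of alveolar type 1 cells, was among its leading genes and kept it from the distal name. There were also 43 mesenchymal-like cells and an unnamed cluster of 27 cells, and all cells other than the mesenchymal-like ones, 3414 in number, counted as epithelial.

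The median depth was 9340.5 UMIs per cell in airway-like, 10850 in distal, 16149.5 in alveolar type 2-like and 19814.5 in Smoc2-Ager cells. Cells with at least 4 Xist UMIs and also a Y-linked UMI, which would need RNA of a female and a male embryo under 1 barcode, numbered 249 (7.20% of kept cells) and had a median of 30401 UMIs. They were 6.13% of airway-like, 2.93% of distal, 2.91% of alveolar type 2-like and 21.8% of Smoc2-Ager cells. Mixes of cells of the same sex are not seen this way, so these shares do not count every mixed cell. The levels in the Smoc2-Ager cluster are given with that share in view, and whether mixed cells shape them was not tested.

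The promoters of the 4 genes that were higher in distal than in airway-like cells, and of Plagl1, which was lower, are printed to show the sequence at their starts of transcription. Each line holds 250 bases before and 50 after a RefSeq start in GRCm38.p6, 5′ to 3′ along the gene's strand, with each CG dinucleotide, the site at which DNA is methylated, in capitals. For genes with several starts, the first of the windows with the most CG dinucleotides is shown.
Dlk1 (chr12:109452573-109452872, plus strand): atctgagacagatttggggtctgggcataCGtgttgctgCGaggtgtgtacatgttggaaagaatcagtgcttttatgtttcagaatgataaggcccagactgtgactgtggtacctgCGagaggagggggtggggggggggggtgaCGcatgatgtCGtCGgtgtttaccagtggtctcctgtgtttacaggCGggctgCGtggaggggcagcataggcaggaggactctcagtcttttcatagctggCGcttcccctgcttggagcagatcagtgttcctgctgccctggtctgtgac
Meg3 (chr12:109540746-109541045, plus strand): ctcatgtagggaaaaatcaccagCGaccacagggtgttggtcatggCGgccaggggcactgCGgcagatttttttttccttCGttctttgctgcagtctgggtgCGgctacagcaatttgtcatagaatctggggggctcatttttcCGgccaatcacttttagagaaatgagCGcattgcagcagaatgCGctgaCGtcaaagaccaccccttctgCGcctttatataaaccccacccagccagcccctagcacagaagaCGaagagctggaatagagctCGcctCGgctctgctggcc
Peg3 (chr7:6730370-6730669, minus strand): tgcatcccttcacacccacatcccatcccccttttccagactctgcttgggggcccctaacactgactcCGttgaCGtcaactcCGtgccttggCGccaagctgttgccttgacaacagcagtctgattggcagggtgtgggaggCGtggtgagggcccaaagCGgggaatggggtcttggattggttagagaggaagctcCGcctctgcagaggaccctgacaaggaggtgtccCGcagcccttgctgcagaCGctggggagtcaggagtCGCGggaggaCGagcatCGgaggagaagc
Mest (chr6:30737800-30738099, plus strand): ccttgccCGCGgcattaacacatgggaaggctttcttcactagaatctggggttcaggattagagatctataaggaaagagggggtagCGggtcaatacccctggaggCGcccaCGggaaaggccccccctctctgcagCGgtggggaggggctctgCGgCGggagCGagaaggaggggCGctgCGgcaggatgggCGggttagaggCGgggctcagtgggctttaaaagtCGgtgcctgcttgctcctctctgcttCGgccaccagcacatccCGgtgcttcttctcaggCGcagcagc
Plagl1 (chr10:13090582-13090881, plus strand): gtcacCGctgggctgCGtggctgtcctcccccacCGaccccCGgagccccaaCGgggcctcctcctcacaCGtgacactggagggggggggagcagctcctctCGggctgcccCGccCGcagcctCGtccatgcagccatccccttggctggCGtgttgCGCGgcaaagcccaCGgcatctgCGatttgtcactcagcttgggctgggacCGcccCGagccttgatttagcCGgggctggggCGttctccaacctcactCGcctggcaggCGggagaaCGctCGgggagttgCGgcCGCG
The windows held 9 CG dinucleotides for Dlk1, 13 for Meg3, 13 for Peg3, 17 for Mest and 26 for Plagl1, against a median of 7 over all 32851 windows of that length. Counts as high were found in 45.8% of all windows for Dlk1, 37.9% for Meg3 and Peg3, 31.4% for Mest and 16.9% for Plagl1, and the windows shown are the richest of each gene (the other window of Meg3 held 1). Grb10 had the most of the set, 45, a count reached by 1.93% of all windows. In all, RefSeq windows were matched for 8 of the 10 genes, 15 windows with 1 per start, and 13 of the 15 held at least the median count. The LEF/TCF motifs CTTTGAT and CTTTGAA, searched on both strands, were in 0 of the 15 windows and in 8.65% of all windows. That says only that these letters are not in these windows.

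H19 and Mest also host microRNAs, short RNAs that pair with messages through bases 2 to 8, the seed, shown in capitals. The mature forms are printed because H19 and Mest differed between airway and distal cells in opposite directions. The microRNAs themselves were not measured.
miR-675-5p in H19: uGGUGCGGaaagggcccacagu
miR-675-3p in H19: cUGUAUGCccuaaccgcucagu
miR-335-5p in Mest: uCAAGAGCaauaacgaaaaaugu
miR-335-3p in Mest: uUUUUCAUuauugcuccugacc
The 4 seeds differ from each other. The sequences are from RefSeq (GRCm38.p6).

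The levels of the set were first compared between the 4 epithelial classes, which split it. Cdkn1c and H19 peaked in airway-like cells, Dlk1 and Mest peaked in alveolar type 2-like cells, and Meg3, Peg3 and Grb10 peaked in distal cells, among the epithelial classes. Plagl1, Igf2 and Igf2r had their highest values in airway-like cells, at low levels. Each UMI stands for 1 captured molecule, so levels are not scaled by gene length, but capture can differ between genes, and levels are therefore compared between cell classes rather than between genes.

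**Figure D1:**
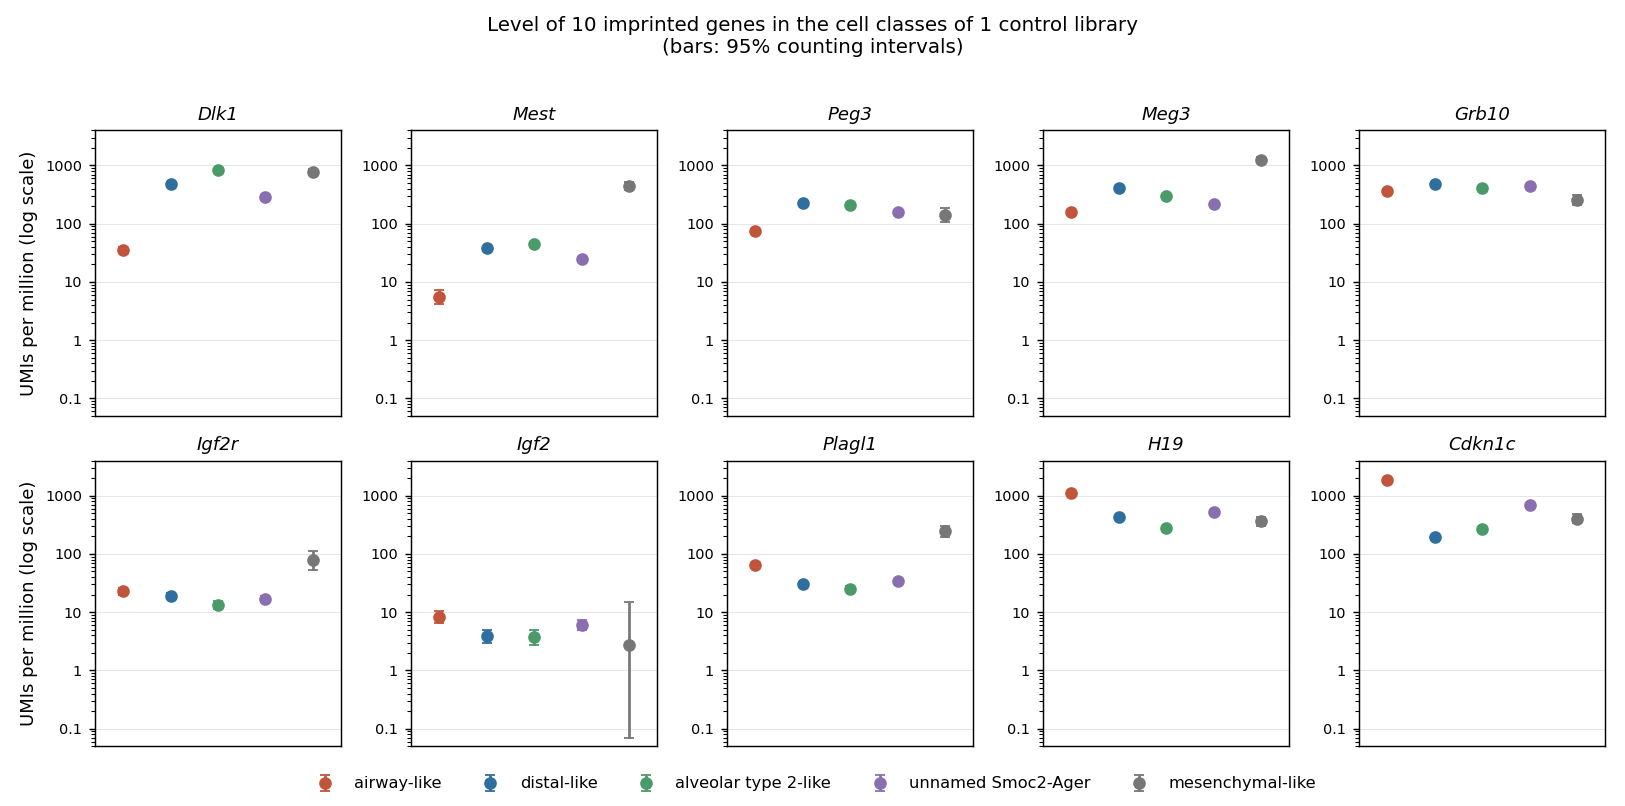
CPM of each of the 10 genes (log axis, the same for all panels) in 5 cell classes of the control library, with 95% counting intervals. Dlk1, Mest, Peg3 and Meg3 are lowest in the 734 airway-like cells, and Cdkn1c and H19 are highest there.

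Cdkn1c (ENSMUSG00000037664, chromosome 7, 143458339 to 143461050, minus strand) encodes an inhibitor of cyclin-dependent kinases. Airway-like cells had 1852 CPM (interval 1823 to 1880), followed by 685 CPM in the Smoc2-Ager cluster (672 to 698), 273 CPM in alveolar type 2-like cells (264 to 282) and 198 CPM in distal cells (192 to 206). No neighbouring intervals in that order overlapped. At 5000 UMIs per cell, a Cdkn1c UMI was found in 98.5% of airway-like cells (interval 97.3% to 99.3%) and in 49.2% of distal cells (46.5% to 52.0%), and without thinning in 98.9% and 74.5%.

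H19 (ENSMUSG00000000031, chromosome 7, 142575529 to 142578143, minus strand) followed the same order at the top, with 1130 CPM in airway-like cells (interval 1108 to 1152) and 517 CPM in the Smoc2-Ager cluster (506 to 529). Distal cells had 429 CPM (419 to 439) and alveolar type 2-like cells 278 CPM (269 to 287). A UMI was found at 5000 UMIs in 98.1% of airway-like, 83.6% of distal and 74.5% of alveolar type 2-like cells (98.8%, 95.7% and 97.2% without thinning). H19 thus fell in level and in share from the airway to the alveolar class, with no overlap between neighbouring CPM intervals.

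Igf2 (ENSMUSG00000048583, chromosome 7, 142650766 to 142666816, minus strand), the partner of H19 in its domain, had only 279 UMIs in all epithelial cells, 5.24 CPM (interval 4.64 to 5.89). It was at 8.19 CPM in airway-like cells (6.41 to 10.3), 6.04 CPM in the Smoc2-Ager cluster (4.88 to 7.39), 3.92 CPM in distal (3.004 to 5.02) and 3.73 CPM in alveolar type 2-like cells (2.75 to 4.95), and each pair of neighbouring intervals overlapped. The level of Igf2 is uncertain, because the annotation places Gm49394 (chromosome 7, 142650769 to 142669942) on the same strand over 62.8% of its exonic bases (3596 of 5723). Gm49394 had 0 UMIs in all barcodes. Reads that fall in 2 genes on 1 strand cannot be assigned to either, and how they were treated is not given in the sources used here. A UMI was found in 2.58% of epithelial cells at 5000 UMIs (interval 2.07% to 3.18%), and in 7.47% without thinning. The level is therefore read as a lower limit on Igf2 transcripts.

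Dlk1 (ENSMUSG00000040856, chromosome 12, 109452823 to 109463336, plus strand) had the reverse class order to H19. It was at 826 CPM in alveolar type 2-like cells (interval 810 to 842), 479 CPM in distal cells (468 to 489), 293 CPM in the Smoc2-Ager cluster (284 to 301) and 35.4 CPM in airway-like cells (31.6 to 39.5). A UMI was found at 5000 UMIs in 91.5% of alveolar type 2-like, 72.7% of distal and 9.88% of airway-like cells (96.9%, 84.1% and 17.3% without thinning). Sftpc, a surfactant gene of distal cells, was found in 16.4% of airway-like cells (interval 13.7% to 19.4%; median depth 9340.5 UMIs) and in 85.2% of distal cells (median depth 10850 UMIs). There were 0.296 Dlk1 UMIs per Sftpc UMI in airway-like cells and 0.328 in distal cells, and in cells of at most 14000 UMIs 0.424 and 0.308. How much of the airway level of Dlk1 is free RNA of distal cells was not tested.

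Meg3 (ENSMUSG00000021268, chromosome 12, 109541001 to 109571726, plus strand) shares the domain of Dlk1 but not its order. Meg3 was highest in distal cells, at 416 CPM (interval 406 to 427), followed by alveolar type 2-like cells at 294 CPM (285 to 303), the Smoc2-Ager cluster at 220 CPM (212 to 227) and airway-like cells at 158 CPM (150.3 to 167). It was found at 5000 UMIs in 72.2% of distal and 43.9% of airway-like cells (86.3% and 58.7% without thinning).

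Peg3 (ENSMUSG00000002265, chromosome 7, 6703892 to 6730431, minus strand) encodes a zinc finger protein. It was at 224 CPM in distal cells (interval 217 to 231), 211 CPM in alveolar type 2-like cells (203 to 219), 160.2 CPM in the Smoc2-Ager cluster (154 to 167) and 75.7 CPM in airway-like cells (70.02 to 81.6). The first pair of intervals overlapped and the others did not. It was found at 5000 UMIs in 60.6% of distal and 28.1% of airway-like cells (82.5% and 43.7% without thinning).

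Mest (ENSMUSG00000051855, chromosome 6, 30723547 to 30748465, plus strand) encodes an enzyme of the alpha/beta hydrolase family. It was at 45.04 CPM in alveolar type 2-like cells (interval 41.4 to 48.9), 37.7 CPM in distal cells (34.8 to 40.9), 24.4 CPM in the Smoc2-Ager cluster (22.01 to 26.98) and 5.57 CPM in airway-like cells (4.12 to 7.37). No neighbouring intervals overlapped. The 49 airway UMIs lay in 40 cells. At 5000 UMIs a UMI was found in 1.89% of airway-like and 15.1% of distal cells (5.45% and 30.4% without thinning). There were 0.0467 Mest UMIs per Sftpc UMI in airway-like cells and 0.0258 in distal cells, and in cells of at most 14000 UMIs 0.133 and 0.0236.

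Grb10 (ENSMUSG00000020176, chromosome 11, 11930508 to 12038683, minus strand) encodes an adaptor that binds insulin and IGF receptors and dampens their signals. It was the most even of the 6 genes with over 2000 UMIs, at 487 CPM in distal cells (interval 476 to 498), 445 CPM in the Smoc2-Ager cluster, 407 CPM in alveolar type 2-like cells and 369 CPM in airway-like cells (356 to 381). A UMI was found at 5000 UMIs in 87.5% of distal and 78.2% of airway-like cells (97.5% and 91.6% without thinning).

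Plagl1 (ENSMUSG00000019817, chromosome 10, 13060504 to 13131694, plus strand), a zinc finger transcription factor, reached 63.7 CPM (interval 58.5 to 69.2) in airway-like cells, 34.0 CPM in the Smoc2-Ager cluster (31.1 to 37.0), 30.1 CPM in distal (27.5 to 33.0) and 25.3 CPM in alveolar type 2-like cells (22.6 to 28.2). Only the airway interval was apart from its neighbour. Igf2r (ENSMUSG00000023830, chromosome 17, 12682406 to 12769664, minus strand), the receptor that clears IGF2 from the cell surface, was at 22.8 CPM in airway-like cells (19.7 to 26.1), 18.96 CPM in distal cells (16.9 to 21.2), 16.9 CPM in the Smoc2-Ager cluster (14.9 to 19.1) and 13.2 CPM in alveolar type 2-like cells (11.3 to 15.4). Each pair of neighbouring intervals overlapped. The airway interval was apart from those of the Smoc2-Ager and alveolar type 2-like cells, and the distal interval from that of the alveolar type 2-like cells. At 5000 UMIs, Plagl1 was found in 24.1% of airway-like and 13.7% of distal cells and Igf2r in 10.5% and 8.54% (46.6%, 29.4%, 23.2% and 20.5% without thinning).

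Other genes cover parts of these loci on the opposite strand, and the sources used here do not give whether counting used strand. Copg2 overlaps 23.1% of the exonic bases of Mest. At 14.3 CPM in distal and 24.1 CPM in airway-like cells, Copg2 went the other way from Mest. Gm44732 overlaps 30.7% of the exonic bases of Cdkn1c and had 14 UMIs. Igf2os, on the strand opposite Igf2, had 137 UMIs.

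The second comparison set distal against airway-like cells, the split between the tips that keep branching and the tubes behind them. Dlk1, Mest, Peg3 and Meg3 were at least 1.5-fold higher in distal cells, 4 of 10, where 6.55% of the 10671 genes compared (50 UMIs or more in the pair of classes) were. Cdkn1c, H19, Plagl1 and Igf2 were at least 1.5-fold higher in airway-like cells, 4 of 10, where 23.1% of genes were. Grb10 and Igf2r lay inside the limit. In either direction it was 8 of 10, against 29.6% of all genes compared. The 10 genes were chosen with earlier results of these data known. The backgrounds here and below therefore describe the set and do not test it. The median log2 ratio of the 10 was 0.07 and that of all genes -0.21.

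Dlk1 had a ratio of 13.5 (interval 12.1 to 15.2), from 7572 distal and 311 airway UMIs, and stood 16th from the top of the 10671 genes. Mest had a ratio of 6.77 (5.05 to 9.25). Peg3 had a ratio of 2.96 (2.72 to 3.22) and Meg3 of 2.63 (2.48 to 2.79). At the other end, Cdkn1c was 9.33-fold higher in airway-like cells (interval 8.98 to 9.70), from 16275 airway and 3140 distal UMIs, and stood 72nd from the bottom. H19 was 2.64-fold higher there (2.56 to 2.72), Plagl1 2.11-fold (1.87 to 2.39) and Igf2 2.09-fold (1.47 to 2.98). Grb10 leaned to distal cells with a ratio of 1.32 (1.27 to 1.38), and the interval of Igf2r held 1 (ratio 0.833, 0.694 to 1.002).

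**Figure D2:**
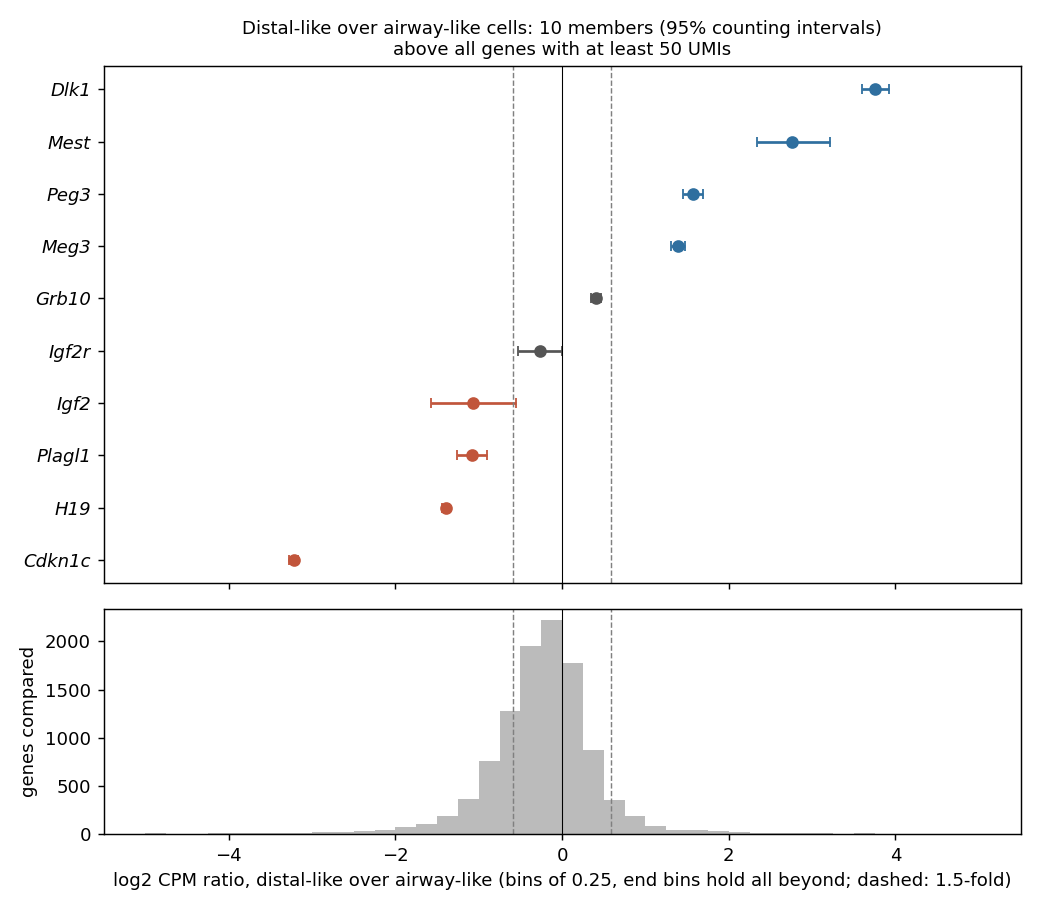
Upper panel, log2 CPM ratio of distal over airway-like cells for each gene, with 95% counting intervals (blue, higher in distal; red, higher in airway; grey, inside 1.5-fold). Lower panel, number of genes per bin of the same ratio over the 10671 genes compared, most of which lie between the dashed lines that Dlk1 and Cdkn1c are far outside.

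The direction did not follow the parent of origin in every gene. Of the 5 paternally expressed genes, Dlk1, Mest and Peg3 were higher in distal cells and Igf2 and Plagl1 lower. Of the 5 maternally expressed genes, Meg3 was higher, H19 and Cdkn1c were lower and Grb10 and Igf2r lay inside the limit. The median log2 ratio was 1.57 for the paternally and -0.26 for the maternally expressed genes, and -0.21 for all genes compared. Whether the parent of origin bears on the direction was not tested. The 2 transcripts of the Dlk1-Meg3 domain leaned the same way, as did the 2 of the Igf2-H19 domain. Summed over the 10, the set made up 3720 CPM in airway-like and 2324 CPM in distal cells, mostly through Cdkn1c and H19 in the airway.

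The library pooled female and male cells, which come from different embryos, so each sex gives the comparison once from its own embryos. There were 364 distal and 218 airway-like cells with at least 4 Xist UMIs and no Y-linked UMI, and 477 and 280 with a Y-linked UMI and no Xist UMI. By the ratio alone, all 10 genes had the same direction in both. For Igf2r the interval held 1 in Xist-high cells (0.799, 0.566 to 1.13) and in Y-linked cells (0.905, 0.664 to 1.24). Igf2 had too few UMIs to be compared in either. Of the 9 with enough UMIs, 4 were past 1.5-fold towards distal cells and 3 towards airway-like cells in each sex, against backgrounds of 6.61% and 20.1% of genes in Xist-high cells and 7.56% and 23.6% in Y-linked cells. Dlk1 had a ratio of 10.1 in Xist-high cells (interval 8.34 to 12.3) and 24.4 in Y-linked cells (19.3 to 31.3), and Mest 4.61 (2.88 to 7.77) and 12.9 (7.06 to 26.1). Cdkn1c was 9.57-fold higher in the airway in Xist-high cells (8.88 to 10.3) and 11.2-fold in Y-linked cells (10.5 to 12.01). The sexes therefore differed most in the size of the Dlk1 and Mest ratios, where the airway counts were 113 and 72 UMIs of Dlk1 and 20 and 11 of Mest.

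Between the sexes within a class, all 9 genes with enough UMIs in distal cells lay inside 1.5-fold (background 1.85% of 8629 genes higher in Xist-high cells, 2.04% higher in Y-linked cells and 3.89% either), from 0.791 for Dlk1 (interval 0.747 to 0.838) to 1.05 for Grb10 (0.996 to 1.11), Xist-high over Y-linked. In airway-like cells Dlk1 was 1.92-fold higher in Xist-high cells (1.41 to 2.61; background 1.98% of 7728 genes), and the other 8 genes with enough UMIs lay inside the limit (2.67% of genes were higher in Y-linked cells, and 4.65% past it either way). The number of embryos behind each sex is not given in the sources used here.

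**Figure D3:**
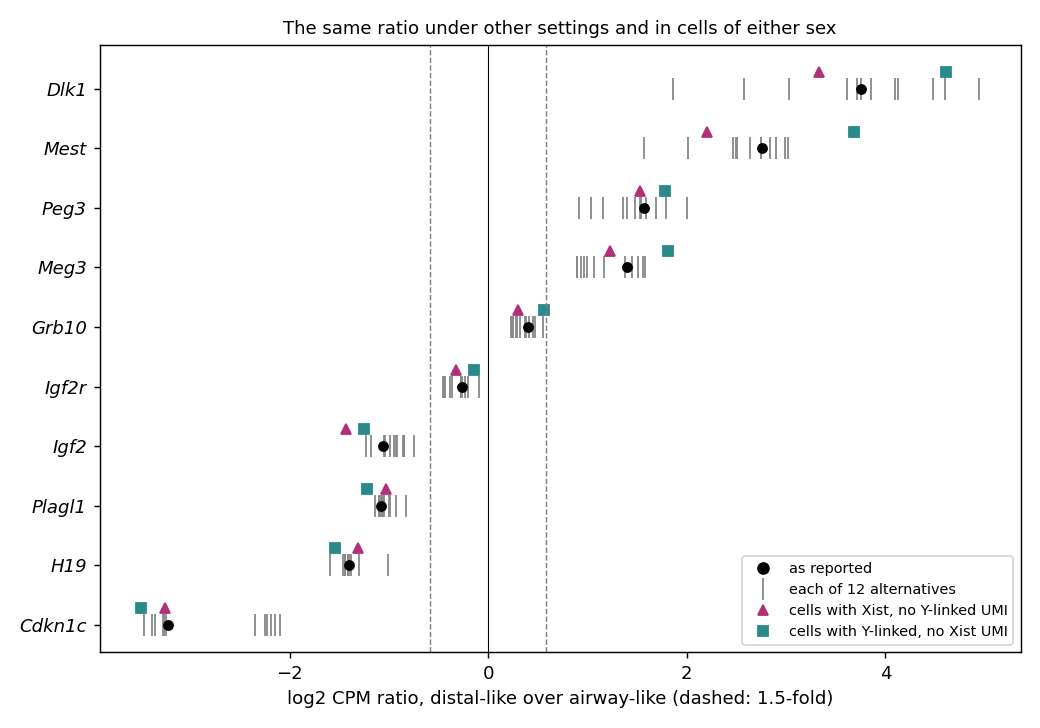
Log2 CPM ratio of distal over airway-like cells for each gene as reported (black), under each of 12 other settings (grey ticks), in Xist-high cells (triangles) and in Y-linked cells (squares). No gene crosses 0 under any of them, while the ratio of Dlk1 ranges from 3.64 to 30.7.

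Over 12 other ways to filter, cluster or sum the cells, each of the 8 genes past the limit kept its direction and stayed past it. The sizes moved more. The ratio of Dlk1 ran from 3.64 with a clustering resolution of 0.8, where 964 cells were airway-like, to 30.7 in cells of at most 14000 UMIs. Cdkn1c ran from 4.27-fold higher in the airway, with cells divided by marker shares in place of clusters, to 11.05-fold in cells with no Mki67 or Top2a UMI. Mest ran from 2.97 to 8.11, Peg3 from 1.89 to 4.02 and Meg3 from 1.86 to 2.98. No alveolar class was named at a resolution of 0.3, with imprinted or cell-cycle genes kept, or with every barcode. The distal class then held 2153 to 2695 cells, against 1295 as reported, so those settings did not compare the same classes.

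Alveolar type 2-like cells differed less from distal cells. Dlk1 was higher again, with a ratio of 1.73 (interval 1.68 to 1.78), 1 of 10 genes in that direction (background 15.2% of 10609 genes). H19 was 1.54-fold higher in distal cells (1.48 to 1.61), 1 of 10 (background 3.90%). The other 8 lay inside the limit, which 19.1% of genes were past, from 0.697 for Igf2r (0.574 to 0.845) to 1.37 for Cdkn1c (1.31 to 1.44). Neither call held under every setting. With cells divided by marker shares, Dlk1 had a ratio of 1.02 and H19 of 1.095. That alveolar class was set by type 2 and type 1 markers together and held 1318 cells, against 688 as reported. It is therefore not the same class. In 4 of the 12 settings no alveolar class was named, so that no ratio could be formed. Against airway-like cells, the alveolar type 2-like cells repeated the distal pattern. Dlk1 (23.3-fold, interval 20.9 to 26.2), Mest (8.08, 6.03 to 11.05), Peg3 (2.79, 2.56 to 3.04) and Meg3 (1.85, 1.74 to 1.97) were higher, 4 of 10 (background 10.2% of 10421 genes). Cdkn1c, H19, Plagl1, Igf2 and Igf2r were lower, 5 of 10 (background 19.6%, and 29.9% in either direction), by 1.72-fold for Igf2r (1.40 to 2.12) to 6.79-fold for Cdkn1c (6.55 to 7.05). These comparisons share cells with those above.

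The distribution over single cells showed whether the class levels came from a few cells. With every cell thinned to 5000 UMIs, the median airway-like cell had 8 Cdkn1c UMIs (25th to 75th percentile 5 to 12.25, highest 35), and the median distal cell had 0 (75th percentile 1, highest 10). The median cell had 0 Dlk1 UMIs in the airway, 2 in distal cells (highest 29) and 4 in alveolar type 2-like cells (highest 25). No single cell held over 1.34% of the Cdkn1c UMIs of the airway or distal class, or over 0.687% of the Dlk1 UMIs of the distal class. The low airway counts rested more on single cells. There, 1 cell held 4.50% of the 311 Dlk1 UMIs, and 1 cell held 8.16% of the 49 Mest UMIs.

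**Figure D4:**
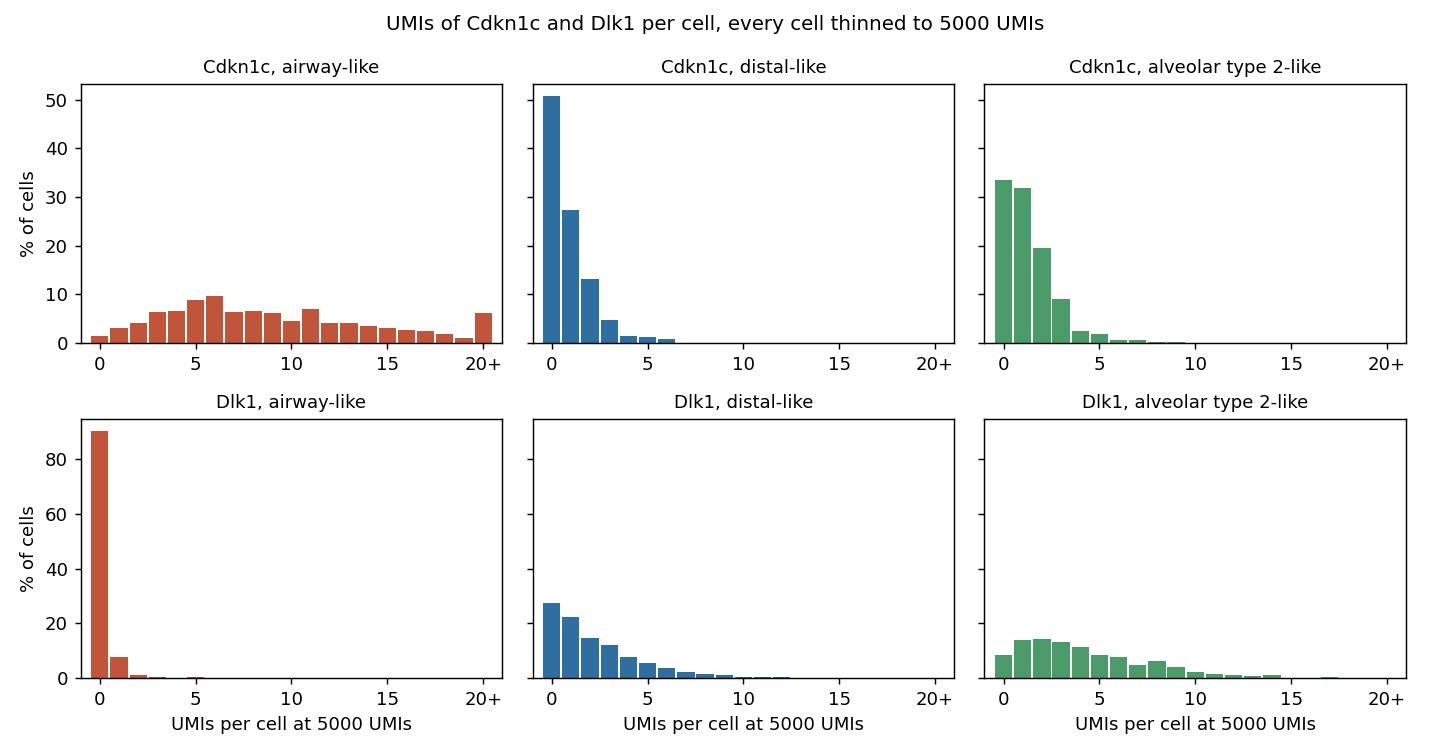
Share of cells (vertical axis, %) with each number of UMIs of Cdkn1c (upper row) and Dlk1 (lower row) after thinning to 5000 UMIs per cell, in airway-like, distal and alveolar type 2-like cells; the last bar holds 20 or more. Cdkn1c spreads widely around a median of 8 in airway-like cells, and Dlk1 runs from a median of 0 there to 4 in alveolar type 2-like cells.

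Within a class some of the genes varied more between cells than genes of like mean. In distal cells the variance of Dlk1 over its mean was 3.03 and that of Meg3 2.78, against medians of 1.13 and 1.12 for genes of like mean, and 98.3% and 97.2% of those genes had lower values. Cdkn1c in distal cells had 1.74, above 98.7% of the like genes. In airway-like cells Cdkn1c had 3.79, above 95.2% of 21 like genes. Dlk1 had 3.49 there, above all 1185 like genes, at a mean of 0.154 UMIs. That value leans on 1 cell with 14 Dlk1 UMIs, where the next highest cell had 6. Grb10 was above 64.0% of its like genes in distal cells (1.22), 77.8% in airway-like cells (1.28) and 48.3% in alveolar type 2-like cells (1.04), and Plagl1 in distal cells, at 0.994, was above 26.6%.

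The 3 distal clusters, which differ in size and leading genes, had Dlk1 from 360.5 to 606 CPM, Cdkn1c from 171 to 251 CPM and Grb10 from 389 to 559 CPM. Plagl1 ran from 20.9 to 36.3 CPM, Mest from 29.1 to 45.4 CPM and Igf2 from 2.51 to 5.31 CPM. Meg3, Peg3, H19 and Igf2r varied by at most 1.27-fold. All 3 stayed above the airway-like cells in Dlk1, Mest, Peg3 and Meg3, and below them in Cdkn1c, H19, Plagl1 and Igf2.

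Cdkn1c restrains cells from entering S phase, so the genes were also set against transcripts of dividing cells. At 5000 UMIs, 52.8% of distal cells (interval 50.01% to 55.6%) and 27.6% of airway-like cells (24.3% to 31.1%) had a UMI of Mki67 or Top2a. Within distal cells, Cdkn1c had a ratio of 1.05 between cells with and without such a UMI (interval 0.929 to 1.18), and within airway-like cells 0.928 (0.877 to 0.982). A cell without such a UMI at this depth may still be dividing, so the split is a coarse one.

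Of the other genes in distal cells, Meg3 was 1.52-fold higher in cells with a Mki67 or Top2a UMI (interval 1.41 to 1.65), 1 of 9 genes with enough UMIs (background 6.74% of 7284 genes, 8.39% in either direction), and the other 8, Peg3 at 1.28 the highest, lay inside the limit. In airway-like cells Dlk1 was 2.72-fold higher (1.83 to 4.06) from 54 and 52 UMIs (background 9.17% of 5930 genes), and Igf2r was 1.55-fold lower with an interval that held 1 (0.871 to 2.94; background 4.28%). In alveolar type 2-like cells Mest was 1.61-fold lower (1.16 to 2.24; background 2.11% of 5538 genes) and Igf2r 1.57-fold higher with an interval that held 1 (0.857 to 2.93; background 5.45%, and 7.57% in either direction).

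Levels were also followed cell by cell. Correlations below are Pearson's r of log(1 + UMIs) over 3327 epithelial cells thinned to 5000 UMIs, which share 1 library. They describe these cells, and cells are not replicates. Of the 45 pairs among the 10 genes, 4 had r of at least 0.2 and 4 of -0.2 or less. Dlk1 and Cdkn1c had r of -0.46, and Dlk1 and H19 -0.43, while H19 and Cdkn1c had 0.43. Most of this followed the classes, since within distal cells the first 2 fell to -0.21 each and the third to 0.13. Dlk1 and Meg3, of 1 domain, had 0.27 over all epithelial cells and 0.26 within the 1265 distal cells, but 0.07 within airway-like and 0.18 within alveolar type 2-like cells.

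Cells with at least 3 UMIs of both Dlk1 and Cdkn1c were few, 134 of 3327 (4.03%, interval 3.39% to 4.75%), against 1071 with that many of Cdkn1c only and 893 of Dlk1 only. Of the 134 cells, 20.1% had both Xist and Y-linked UMIs (interval 13.7% to 27.9%), against 9.43% and 4.14% of the others. Their median depth was 17988 UMIs, against 11680 and 14480. Of the 134, 64 lay in the Smoc2-Ager cluster and 52 among alveolar type 2-like cells.

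Among 4407 genes found in at least 10% of these cells, the ones most like Cdkn1c were Ccnd2 (r of 0.63), Cldn10 (0.56) and Aldh1a7 (0.55). Ccnd2, which encodes a cyclin that drives entry into the cell cycle, was also the gene most like H19 (0.46), followed by Cdkn1c itself (0.43) and Aldh1a7 (0.37). The genes most like Dlk1 were Bex4 (0.48), Clu (0.40) and Id2 (0.37), and its most opposed gene was Ccnd2 (-0.46). Meg3 was most like Id2 (0.32), a marker of distal tips, then Dlk1 (0.27) and Pthlh (0.26). Peg3 was most like Dlk1 (0.24) and Bex4 (0.23), and Mest most like Dlk1 (0.21). For Grb10 and Plagl1 no gene reached 0.2, and Igf2 and Igf2r were found in too few cells to be searched.

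Neighbours in the same imprinted domains gave more values. Mirg, a noncoding RNA of the Dlk1-Meg3 domain, had a distal over airway ratio of 2.45 (interval 1.43 to 4.43; 75 and 17 UMIs), near that of Meg3. Zim1 and Usp29, next to Peg3, had ratios of 17.04 (5.65 to 84.1; 92 and 3 UMIs) and 2.20 (1.74 to 2.79). In the Peg3 and Dlk1-Meg3 domains, all genes with enough UMIs thus leaned to distal cells. In the Kcnq1 domain they did not lean together. Kcnq1ot1, the noncoding RNA of the paternal copy, was 1.73-fold higher in airway-like cells (1.63 to 1.84) and Osbpl5 3.65-fold higher (2.44 to 5.53), like Cdkn1c. Phlda2, a growth-restraining gene of the domain, had a ratio of 1.54 towards distal cells (1.12 to 2.15), and Nap1l4, Cd81 and Tssc4 lay inside the limit. Ddc, next to Grb10, was 2.84-fold higher in airway-like cells (2.27 to 3.57), where Grb10 was slightly lower. Copg2, next to Mest, was 1.69-fold higher in airway-like cells (1.39 to 2.05). For Airn, whose locus overlaps Igf2r, the ratio was 0.825 (0.635 to 1.08).

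A wider list of 62 other imprinted genes did not lean to distal cells. Of the 36 with enough UMIs, 5 were at least 1.5-fold higher in distal cells, 12 were higher in airway-like cells and 19 lay inside the limit, against a background of 6.55% and 23.1%. The median log2 ratio was -0.41, and -0.21 over all genes. The largest differences were those of Dcn, Zim1, Osbpl5 and Ascl2, the last with a ratio of 2.86 (interval 1.57 to 5.65). Dcn, which encodes a matrix protein of connective tissue, was 40.6-fold higher in airway-like cells (19.3 to 103), with 158 UMIs in 122 cells. The 6 mesenchymal markers summed to 19.2 CPM in airway-like cells, of which Dcn itself was 17.98 CPM, with Col3a1 and Tcf21 at 0. In distal cells they summed to 2.02 CPM, with Dcn at 0.442 CPM. Col1a1 and Col1a2 were at 0.341 and 0.569 CPM in airway-like cells and 0.379 and 0.758 CPM in distal cells. Pdgfra was at 0.341 and 0.126 CPM.

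**Figure D5:**
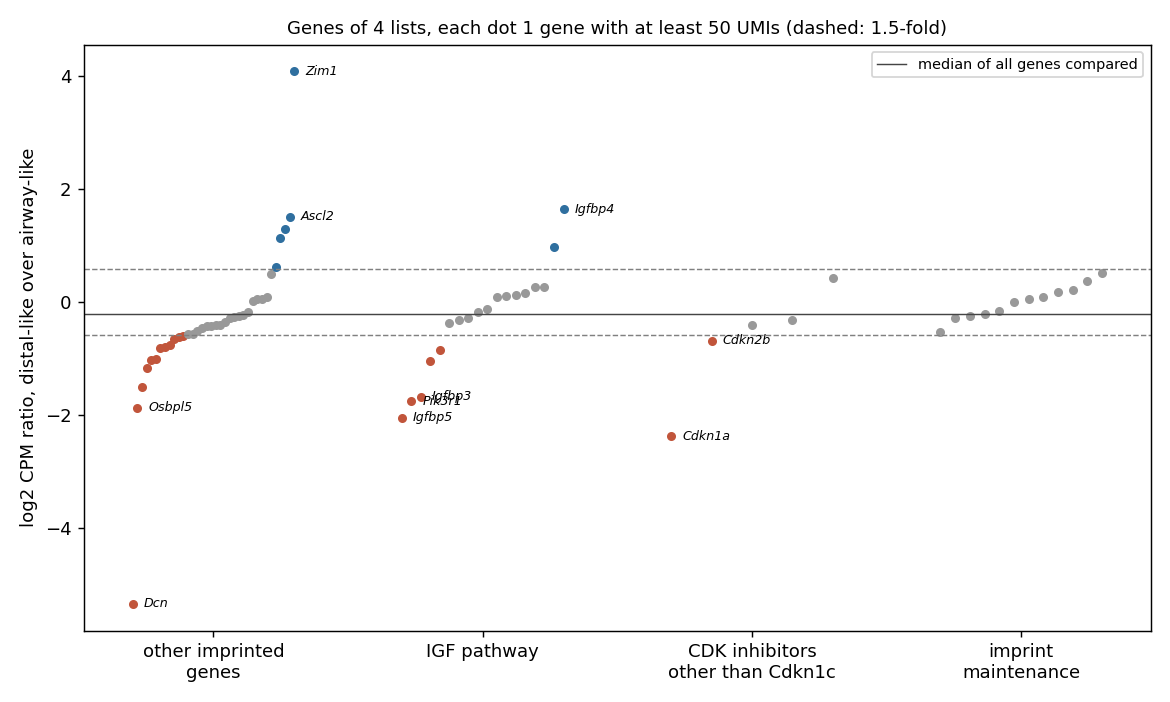
Log2 CPM ratio of distal over airway-like cells for each gene of 4 lists with at least 50 UMIs (blue, at least 1.5-fold higher in distal; red, higher in airway; grey, inside); the solid line is the median of all genes compared. The 12 imprint maintenance genes all lie inside the dashed limits, and the other lists spread beyond them.

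The IGF pathway, through which Igf2, Igf2r and Grb10 act, was compared in the same cells. Of 18 genes with enough UMIs, 2 were higher in distal cells, 5 were higher in airway-like cells and 11 lay inside the limit, with a median log2 ratio of -0.15. Against the same backgrounds of 6.55% and 23.1% of all genes, the airway count is near the share of all genes. Of the 5 binding proteins compared, which hold IGFs outside the cell, 3 were past the limit and Igfbp2 and Igfbp7 lay inside it. Igfbp5 was 4.12-fold higher in airway-like cells (interval 3.88 to 4.38) and Igfbp3 3.20-fold higher (2.10 to 4.96), while Igfbp4 had a ratio of 3.13 towards distal cells (2.54 to 3.89). Pik3r1, a regulatory subunit of the kinase below the receptors, was 3.37-fold higher in airway-like cells (2.82 to 4.04). The receptor Igf1r lay inside the limit, at 42.5 and 37.8 CPM.

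Of the 5 other cyclin-dependent kinase inhibitors with enough UMIs, Cdkn1a, like Cdkn1c, was higher in airway-like cells, by 5.19-fold (interval 3.75 to 7.28) at 16.7 against 3.22 CPM. Cdkn2b was 1.60-fold higher with an interval that held 1 (0.884 to 2.88), and the other 3 lay inside the limit. These 2 of 5 stand beside 23.1% of all genes higher in airway-like cells, and the 0 of 5 higher in distal cells beside 6.55%. Of the 12 genes that maintain imprints with enough UMIs, such as the methyltransferase Dnmt1 and the zinc finger protein Zfp57, 0 were past 1.5-fold in either direction (background 29.6% of genes). Their median log2 ratio was 0.04. Dnmt1 had a ratio of 1.29 towards distal cells (1.11 to 1.502), and Zfp57 was 1.44-fold higher in airway-like cells (1.11 to 1.87).

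The Smoc2-Ager cluster, in which 21.8% of cells had both Xist and Y-linked UMIs, lay between the airway and distal classes in Cdkn1c, Dlk1, H19, Meg3, Peg3 and Mest. Against distal cells, Cdkn1c was 3.45-fold higher (interval 3.31 to 3.59) and Igf2 1.54-fold higher (1.11 to 2.16), 2 of 10 genes (background 13.4% of 10895 genes). Meg3 was 1.90-fold lower (1.82 to 1.98), Dlk1 1.63-fold lower (1.58 to 1.70) and Mest 1.55-fold lower (1.36 to 1.76), 3 of 10 (background 2.07%, and 15.5% in either direction). Against airway-like cells, Dlk1, Mest and Peg3 were higher, 3 of 10 (background 5.78% of 10702 genes), and Cdkn1c, H19 and Plagl1 lower, 3 of 10 (background 10.4%, and 16.2% in either direction).

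The sort for epithelial cells left 43 mesenchymal-like cells (365466 UMIs), which give the same genes outside the epithelium, from few cells. Mest was 14.8-fold higher there than in epithelial cells (interval 12.51 to 17.4), at 449 against 30.4 CPM. Plagl1 was 6.92-fold higher (5.54 to 8.56), Igf2r 4.53-fold (3.02 to 6.55), Meg3 4.41-fold (4.01 to 4.84) and Dlk1 1.78-fold (1.58 to 2.003). These are 5 of 10 genes, where 22.6% of the 11810 genes compared were higher in the mesenchymal-like cells. Grb10 was 1.69-fold lower (1.38 to 2.09) and Cdkn1c 1.56-fold lower (1.33 to 1.85). Igf2, with 1 UMI, was 1.91-fold lower with an interval that held 1 (0.341 to 75.9). In these cells 3 UMIs make 8.21 CPM, above the 5.24 CPM of Igf2 in epithelial cells, so a lower level could not be told. By the ratio alone, Grb10, Cdkn1c and Igf2 make 3 of 10 genes lower, where 32.1% of genes were lower and 54.7% past the limit either way. H19 and Peg3 lay inside it.

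The reverse question, how much mesenchymal RNA lay in epithelial cells, bears on Mest. Col1a1 had a UMI in 0.150% of thinned epithelial cells (interval 0.0488% to 0.350%; median depth 12908.5 UMIs) and in 68.4% of 38 mesenchymal-like cells (51.3% to 82.5%; median depth 7246 UMIs). There were 55.8 Mest UMIs per UMI of Col1a1 and Col3a1 in epithelial cells and 0.659 in mesenchymal-like cells.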

How the data were processed

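Sorted lung epithelial cells of control and LEF/TCF knockout mouse embryos were made into libraries with the 10x 3′ kit, version 2, and read on a NextSeq500, per the labels' protocols. The submitters' processing notes name Cell Ranger, Seurat and the build mm10, and the file headers record software version 3.0.1. The values the authors deposited are raw UMI counts, not normalized. The counting annotation and the use of strand are not given in the sources used here. The expression of the knockout library was not analysed here.

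Gene positions are from GENCODE M21 (GRCm38), in which 30934 of the 31053 identifiers, and all 10 of the genes described, were matched. Of 3568 barcodes, 111 were removed by the limits on genes and mitochondrial UMIs. After scaling each cell to 10000 UMIs and taking logs, 2000 variable genes (present in 10 cells or more) outside the lists of members, other imprinted, IGF, Wnt and cell-cycle genes, gave 20 principal components and a graph over 20 neighbours, clustered with Leiden (leidenalg 0.10.2, resolution 0.5, seed 0; scanpy 1.11.5, Python 3.11.15, numpy 2.4.6, scipy 1.17.1, matplotlib 3.10.9). A cluster took a class name when at least 3 markers with at least 10 UMIs were at 2 times their CPM elsewhere in the library, unless its 10 leading genes held more markers of another class. Epithelial clusters of at least 50 cells with at least 3 distal markers at 1.5 times the airway level were otherwise called distal. The limit on size was set after the clusters were seen. This name too was withheld where the 10 leading genes held more markers of another class, as with Ager in the Smoc2-Ager cluster. The distal clusters took their name by this second rule. Epithelial clusters had 3 or more of 5 pan-epithelial markers at 25% of the library's level. No doublet caller was run, and cells with at least 4 Xist UMIs and a Y-linked UMI were counted instead.

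UMIs were summed per class and given as CPM with exact Poisson intervals. Ratios carry exact conditional intervals and shares exact binomial (Clopper-Pearson) intervals, at the 95% level. All cover counting error only. A gene was compared when both classes together had at least 50 UMIs, and 1.5-fold marked a difference. Shares and correlations used cells thinned to 5000 UMIs, which left out 87 of 3414 epithelial cells. At that depth, a count of 0 in 3327 cells allows a share of up to 0.0902% (3 counts). The intervals were tried on simulated Poisson counts with known ratios. Those counts lack the added spread between cells described above, so the trial says nothing about that spread.

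The 10 genes and the lists were chosen with earlier results of these data known. The named genes are the 10, up to 4 per list with the largest fold past the limit, genes of the same imprinted domains, and for each of the 10 the 3 genes with the highest r of at least 0.2; Igf1r, Igfbp2, Igfbp7, Dnmt1 and Zfp57 were named outside that rule. The alternatives were another seed, resolutions of 0.3 and 0.8, keeping imprinted or cell-cycle genes in clustering, depth, doublet and division limits, a stricter and no cell filter, means over cells, marker shares in place of clusters, other UMI minimums, 2-fold, and other thinning depths.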

Additional observations from a re-analysis of the deposited data

How the results depend on the processing

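No paired analysis was possible because each group has 1 library, and no replicate could be left out. The number of the 10 genes past 1.5-fold between distal and airway-like cells was 7 or 8 under 15 alternatives, while the share of all genes past the limit ran from 11.8% to 36.0%. All 120 values of single genes there kept their direction, 68 inside and 52 outside the counting interval of the reported ratio. Between alveolar type 2-like and distal cells the number, 2, was 0 at 2-fold, 0 with cells divided by marker shares, 4 in cells of at most 14000 UMIs and 4 in cells with no Mki67 or Top2a UMI. H19 reversed there with marker shares, with a log2 ratio of 0.13. The alveolar class of that setting, from type 2 and type 1 markers together, held 1318 cells against 688, so unlike classes were compared. The cause of the reversal was not tested. At a resolution of 0.3, with imprinted or cell-cycle genes kept among the variable genes, and with every barcode, no alveolar class was named, so those alternatives gave no value. All 10 shares of epithelial cells with a UMI moved outside their intervals at 3000 UMIs per cell and without thinning, so a share holds for its depth only. Igf2 and Igf2r were each found in under 10% of thinned epithelial cells, so depth limits what could be seen of them. Igf2 has a further limit, the overlap with Gm49394 on its strand, and its level is read as a lower limit.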
